A study of Mus musculus with 4 samples.

Results

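The genes described are 7 basic helix-loop-helix (bHLH) transcription factor genes of the cerebellar granule neuron lineage, taken by name from 55341 genes in the deposited count files: Atoh1, of dividing granule neuron precursors, Nhlh1 and Nhlh2, of newly postmitotic granule neurons, Neurod1 and Neurod2, of differentiating and mature granule neurons, and Tcf4 and Tcf12, which encode partner E proteins. RNA-seq was performed on cerebellum at postnatal day 14 from 2 WT mice (Kdm6b fl/fl) and 2 cKO mice (Atoh1-Cre; Kdm6b fl/fl), littermates that all carried floxed Kdm6b, with 1 mouse per library. KDM6B is a demethylase of histone H3 lysine 27, and the comparison addressed how its loss from granule neuron precursors altered gene expression while granule neurons were maturing. Cre was present in the cKO mice only, so effects of Cre and of the deletion cannot be told apart, and expression of the driver is limited to cells with Atoh1 enhancer activity while the RNA came from the whole tissue.

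bHLH factors bind DNA as dimers at the E-box, a short palindromic motif written CANNTG. Tissue-restricted members such as ATOH1, NHLH1 and NEUROD1 pair with broadly expressed E proteins such as TCF4 and TCF12, and ID proteins, which lack the basic DNA-binding region, compete for the E proteins. In the cerebellum ATOH1 maintains granule neuron precursors in the external granule layer, NHLH1 and NHLH2 are transiently present as these cells leave the cell cycle, and NEUROD1 is needed for granule neuron differentiation and survival.

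The libraries held 8811849 to 9892363 counts in genes, so that 1 count equalled 0.101 to 0.112 CPM, the share of all gene counts scaled to a fixed library total, with the TMM method setting the libraries against each other. A library of the WT group, WT 1, stood apart by sex-linked genes, with Xist at 0.431 CPM against 1359 to 1599 CPM in the other libraries, so sex ran partly with genotype. Transcripts of choroid plexus, the epithelium next to the cerebellum that makes cerebrospinal fluid, stood out in cKO 1, where 7 marker genes summed to 692 CPM against 35.6 to 42.2 CPM in the other libraries. Most of the sum in cKO 1 was the marker Ttr (609 CPM), which was at 13.9 CPM in cKO 2 and at 1.73 and 0.108 CPM in WT 1 and WT 2. The markers Kcnj13, Clic6 and Otx2 were lower in cKO 2 than in both WT libraries. Kdm6b was at 154 CPM in both WT libraries and at 127 and 119 CPM in cKO 1 and cKO 2 (log2 fold change −0.33, SE 0.0758, edgeR adjusted p = 0.0162). Floxed exons 14 to 20 are only a part of the exons counted for this gene.

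The family members have related coding sequence, and reads from stretches that are alike could be assigned to the wrong gene. The coding stretches in which they are most alike are therefore shown, with windows of 30 bases compared only from codon starts. The comparison of Nhlh1 with Nhlh2 found 75.2% identity over 399 and 405 bp of coding sequence, and the closest 30 bases, with the 3 differing bases in capitals (GRCm38, GENCODE M21 transcripts), were these:
Nhlh1, chr1:172054067-172054096, minus strand: cgccgGcgCcgcgccacggccaagtaccgC
Nhlh2, chr3:102012861-102012890, plus strand: cgccgCcgGcgcgccacggccaagtaccgA
Neurod1 and Neurod2 shared 68.3% of aligned bases over 1071 and 1149 bp, with a single difference in their closest 30 bases:
Neurod1, chr2:79454660-79454689, minus strand: ctgaacgcggcGctggacaacctgcgcaag
Neurod2, chr11:98327896-98327925, minus strand: ctgaacgcggcTctggacaacctgcgcaag
Atoh1 and Neurod1 shared 63.7%, with 6 differences in their closest 30 bases:
Atoh1, chr6:64729923-64729952, plus strand: gccCagaTctacatcAACgctctgtcGgag
Neurod1, chr2:79454573-79454602, minus strand: gccAagaActacatcTGGgctctgtcAgag
The longest run of identical bases was 20 for Nhlh1 with Nhlh2, 25 for Neurod1 with Neurod2 and 15 for Atoh1 with Neurod1, all far shorter than the reads of 150 bp.

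The newborn-stage genes Nhlh1 and Nhlh2 were higher in cKO cerebellum, by 2.26-fold and 1.51-fold, while the other 4 members that could be tested did not pass the threshold. Of the 7 members, 6 passed the filter on low counts, and 2 of these 6 had an edgeR adjusted p under 0.05, both higher in cKO. Over all 16617 genes tested, 4.04% passed in either direction, 1.87% higher and 2.17% lower in cKO. Both cKO libraries lay above both WT libraries for 3 of the 6 tested members (Nhlh1, Nhlh2 and Tcf4), an arrangement found for 23.2% of all tested genes, and for none of the 6 did they lie below, against 23.2% of all tested genes. In RNA of a whole tissue, more cells of a type and more RNA of a gene per cell cannot be told apart.

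**Figure D1:**
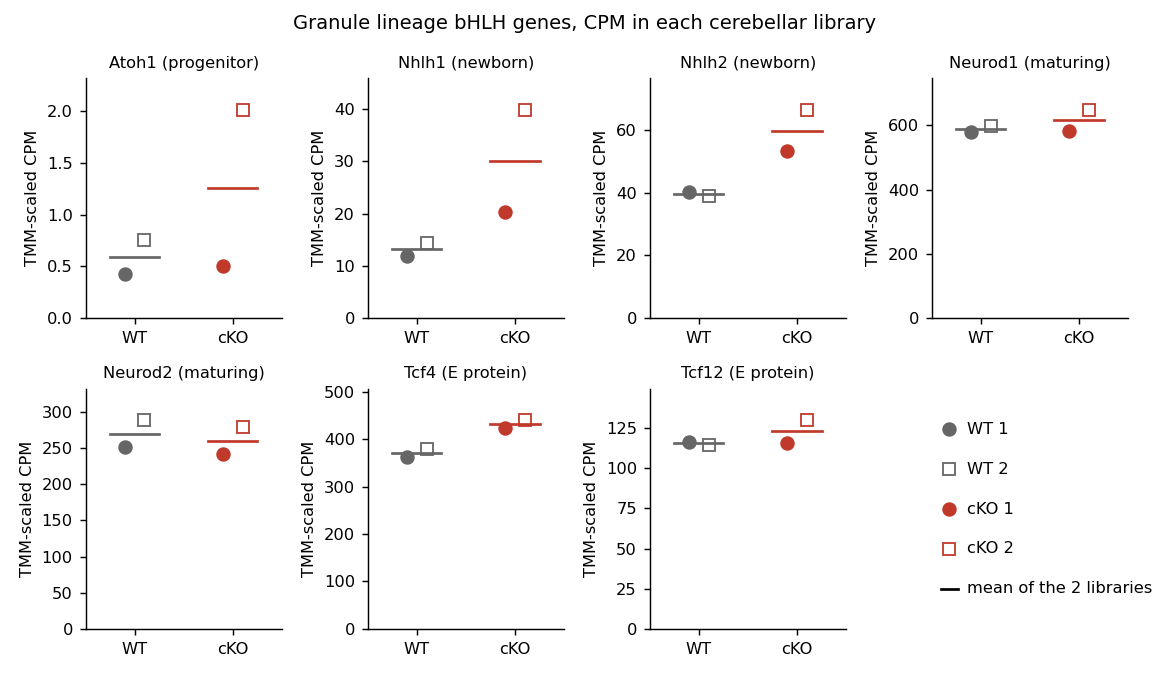
TMM-scaled CPM of the 7 bHLH genes in each library, with 1 point per library (grey for WT, red for cKO, circles for replicate 1, squares for replicate 2) with a line at the mean of the 2 libraries, each panel on its own axis from 0. Nhlh1, Nhlh2 and Tcf4 have both cKO points above both WT points, and cKO 2 is the highest library for 6 of the genes, the exception being Neurod2.

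Atoh1 (ENSMUSG00000073043.5, chromosome 6, 64729125 to 64731245, plus strand, a gene with 1 exon) was close to the limit of detection. It had 4 and 7 counts in WT 1 and WT 2 and 5 and 18 counts in cKO 1 and cKO 2, which is 0.431, 0.756, 0.504 and 2.02 CPM. The groups overlapped, and cKO 2 stood alone as the highest library. The 95% Poisson intervals, which cover counting error only, ran from 0.118 to 1.1, 0.304 to 1.56 and 0.164 to 1.18 CPM in WT 1, WT 2 and cKO 1, and from 1.2 to 3.19 CPM in cKO 2. Summed over each group and divided by depth, the ratio of cKO to WT was 2.06, with an interval from counting error of 0.963 to 4.67. This interval leaves out the spread between mice, and no difference was detectable at this depth with 2 libraries per group. Whether the Atoh1-Cre transgene carries sequence of the Atoh1 exon is not given in the sources used here.

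Nhlh1 (ENSMUSG00000051251.3, chromosome 1, 172052292 to 172057573, minus strand) had the largest fold change of the tested members. Its level was 11.97 and 14.47 CPM in WT 1 and WT 2 and 20.36 and 39.88 CPM in cKO 1 and cKO 2. The lowest cKO library lay above the highest WT library, and the 2 cKO libraries were themselves far apart. The mean was 13.2 ± 1.77 CPM in WT and 30.1 ± 13.8 CPM in cKO (SD, n = 2 each). The log2 fold change was 1.18 (SE 0.22, 95% interval 0.72 to 1.64, edgeR adjusted p = 0.00296). Left out in turn, cKO 1 gave 1.59 (adjusted p = 0.237) and cKO 2 gave 0.62 (adjusted p = 0.493), so the size of the rise depended on cKO 2. In DESeq2 the same log2 fold change of 1.19 did not pass (adjusted p = 0.252). Without WT 1, which left 3 libraries with the same Xist pattern and only a single WT library, the log2 fold change was 1.05.

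Nhlh2 (ENSMUSG00000048540.8, chromosome 3, 102010076 to 102015492, plus strand), the close relative of Nhlh1, had a smaller fold change, with cKO libraries that lay closer together. It was at 40.3 and 38.9 CPM in WT 1 and WT 2 and at 53.1 and 66.4 CPM in cKO 1 and cKO 2. The WT libraries were nearly equal, and both cKO libraries lay above them, cKO 2 again the higher. The mean rose from 39.6 ± 1.04 to 59.8 ± 9.41 CPM (SD, n = 2 each), a log2 fold change of 0.59 (SE 0.112, 95% interval 0.36 to 0.82, edgeR adjusted p = 0.00331). DESeq2 gave adjusted p = 0.00833. The call was lost without cKO 1 (log2 fold change 0.75, adjusted p = 0.237) and without cKO 2 (0.43, adjusted p = 0.493), fits in which none of the genes tested passed in edgeR although 2315 and 1718 had an unadjusted p under 0.05. Without WT 1, with a single WT library left, the log2 fold change was 0.62.

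Nhlh1 relative to Nhlh2 also shifted between libraries. Nhlh1 reads were 29.7% and 37.2% of those of Nhlh2 in WT 1 and WT 2, and 38.3% and 60% in cKO 1 and cKO 2. WT 2 and cKO 1 were nearly equal and the span was set by WT 1 and cKO 2. The mean difference was 0.53 on the log2 scale, with an exact permutation p = 0.333 (two-sided), the smallest that 2 against 2 libraries can give.

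Nhlh1 and Nhlh2 were both higher in cKO, so the E-boxes of their promoters are shown. They are taken from the 300 bp around the RefSeq start site (GRCm38.p6), 250 bases before it and 50 after it. This stretch was found for 6 of the 7 members. Distances count from the RefSeq site, which differs from the GENCODE gene start in Nhlh1, Nhlh2, Neurod1, Neurod2 and Tcf12. These windows hold the E-box, in capitals, of each match upstream of the RefSeq start site in the 2 genes:
Nhlh1, 203 bases upstream, chr1:172057782-172057811, minus strand: atgcatggagaaCAGATGtccctgctcccc
Nhlh2, 209 bases upstream, chr3:102009924-102009953, plus strand: atgggctgctttCAACTGctatattttatg
Nhlh2, 127 bases upstream, chr3:102010006-102010035, plus strand: cccacactgtgaCAGATGtcaagtccaatt
The form CAGATG was also present 118 bases upstream of Neurod2, which did not pass the test:
Neurod2, chr11:98329746-98329775, minus strand: agtagagagtgaCAGATGgcggcgggtccc
CANNTG reads the same on both strands. In the whole 300 bp it matched 4 times in Nhlh2, 3 times in Neurod2, 2 times in Nhlh1, 1 time each in Neurod1 and Tcf12 and 0 times in Atoh1. Tcf12 had 3 listed promoters, and only the first listed was used, as for every gene. Among 27025 promoters of this length 72.1% held at least 1 match, 6.52% held as many as Nhlh2 or more, 39.6% as many as Nhlh1 or more, and 17.2% held the form CAGATG or its reverse complement. A match states only which letters are present.

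Neurod1 and Neurod2, the most abundant members, did not pass the test. Neurod1 (ENSMUSG00000034701.9, chromosome 2, 79452521 to 79456751, minus strand) was at 579 and 597 CPM in WT 1 and WT 2 and at 583 and 648 CPM in cKO 1 and cKO 2. WT 2 lay above cKO 1, so the groups overlapped. The means were 588 ± 12.7 and 616 ± 46.1 CPM (SD, n = 2 each), with a log2 fold change of 0.07 (SE 0.0721, 95% interval −0.08 to 0.22, edgeR adjusted p = 0.721). Of its 2729 exon bp, 355 are shared with the overlapping genes Cerkl and Gm26755, and reads there could be lost or counted for another gene. Each of the other members shares no exon base with another annotated gene.

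Neurod2 (ENSMUSG00000038255.6, chromosome 11, 98325415 to 98329648, minus strand) was at 251 and 288 CPM in WT 1 and WT 2 and at 242 and 279 CPM in cKO 1 and cKO 2. The spread within each genotype was larger than the gap between genotypes. The means were 269.9 ± 26.2 and 260.6 ± 26.4 CPM (SD, n = 2 each), with a log2 fold change of −0.05 (SE 0.0801, 95% interval −0.22 to 0.12, edgeR adjusted p = 0.824). As folds of cKO over WT, the 95% intervals ran from 0.943 to 1.16 for Neurod1 and from 0.86 to 1.08 for Neurod2. Reads of Neurod2 were 43.4% and 48.3% of those of Neurod1 in the WT libraries and 41.5% and 43.1% in the cKO libraries (log2 difference −0.12, exact permutation p = 0.333).

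The newborn-stage pair can be set against the later pair within each library, a ratio that no scaling between libraries moves. Summed CPM of Nhlh1 and Nhlh2 came to 6.3% and 6.02% of that of Neurod1 and Neurod2 in WT 1 and WT 2, and to 8.91% and 11.5% in cKO 1 and cKO 2. Both cKO libraries exceeded both WT libraries, and the 2 WT libraries were close to each other. The mean log2 ratio was −4.02 ± 0.0457 in WT and −3.31 ± 0.257 in cKO (SD, n = 2 each), a difference of 0.71. The exact permutation p was 0.333 (two-sided), the smallest this design allows. With CPM divided by exon length the difference was 0.81, and with either cKO library left out it was 0.53 or 0.90. Groups without overlap were not particular to this ratio. They were also found for Nhlh1 over Nhlh2 and Tcf4 over Tcf12 (cKO above) and for Neurod2 over Neurod1 (cKO below).

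**Figure D2:**
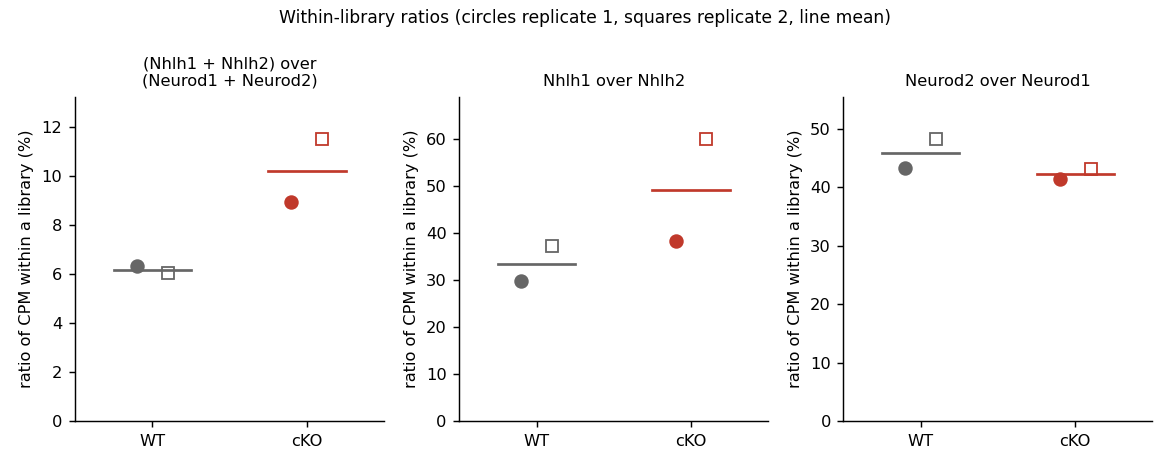
Ratios of CPM within each library, in percent (WT grey, cKO red, circles replicate 1, squares replicate 2, line mean of 2 libraries), for Nhlh1 plus Nhlh2 over Neurod1 plus Neurod2, for Nhlh1 over Nhlh2 and for Neurod2 over Neurod1. The first ratio goes from 6.02% and 6.3% in WT to 8.91% and 11.5% in cKO. The third is at 43.4% and 48.3% in WT and at 41.5% and 43.1% in cKO, also without overlap.

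Tcf4 (ENSMUSG00000053477.17, chromosome 18), which encodes the E protein also called E2-2, was at 361.5 and 379 CPM in WT 1 and WT 2 and at 422.7 and 439.5 CPM in cKO 1 and cKO 2. The groups did not overlap and the libraries of each genotype were close together. The means were 370.3 ± 12.5 and 431 ± 11.8 CPM (SD, n = 2 each), a log2 fold change of 0.22 (SE 0.0689, 95% interval 0.08 to 0.36). It did not pass over all genes (edgeR adjusted p = 0.0822). It passed when libraries were scaled by their totals alone (0.25, adjusted p = 0.036). Without WT 1, with a single WT library left, the log2 fold change was 0.19.

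Tcf12 (ENSMUSG00000032228.16, chromosome 9, 71842688 to 72111871, minus strand), which encodes the E protein HEB, was at 116.2 and 114.7 CPM in WT 1 and WT 2 and at 116 and 129.8 CPM in cKO 1 and cKO 2. Of the cKO libraries only cKO 2 lay above both WT libraries. The log2 fold change was 0.09 (SE 0.0803, 95% interval −0.08 to 0.26, edgeR adjusted p = 0.647). Reads of Tcf4 came to 311% and 331% of those of Tcf12 in WT and to 364% and 338% in cKO.

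**Figure D3:**
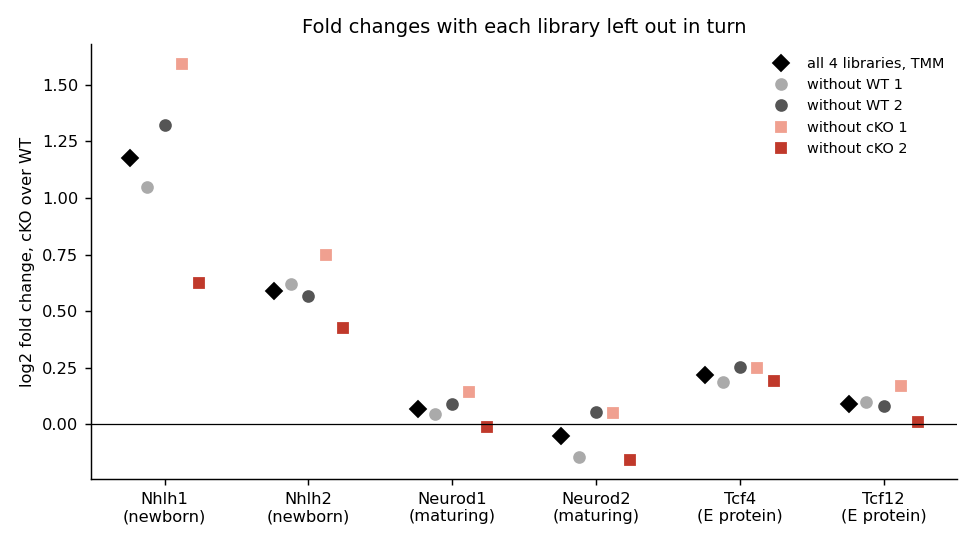
Log2 fold change of the 6 tested members, cKO over WT, in the fit of all 4 libraries (black diamonds) and with each library left out in turn (grey circles for a WT library left out, red squares for a cKO library left out). Nhlh1 ranges from 0.62 without cKO 2 to 1.59 without cKO 1, Nhlh2 and Tcf4 stay above 0 in each fit, and Neurod1 and Neurod2 fall on both sides of 0.

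Compared per kilobase of merged exon sequence, the members spanned a wide range of levels in WT. Neurod1 was at 215 ± 4.67 CPM per kb, Neurod2 at 85.9 ± 8.35, Tcf4 at 13.5 ± 0.456, Tcf12 at 7.43 ± 0.0681, Nhlh2 at 7.31 ± 0.192, Nhlh1 at 5.37 ± 0.716 and Atoh1 at 0.28 ± 0.108 CPM per kb (SD, n = 2). On this scale Tcf12 and Nhlh2 did not differ beyond their spread, since WT 1 had 7.48 and 7.45 and WT 2 had 7.38 and 7.18 CPM per kb. The order of the other neighbours held in both WT libraries. In cKO the mean levels were 226 CPM per kb for Neurod1, 82.9 for Neurod2, 15.7 for Tcf4, 12.2 for Nhlh1, 11 for Nhlh2, 7.92 for Tcf12 and 0.594 for Atoh1. The cKO libraries of Nhlh1, at 8.26 and 16.2 CPM per kb, overlapped those of Nhlh2 (9.81 and 12.3) and of Tcf4 (15.4 and 16). Dividing by merged exons lowers the values of Tcf4 and Tcf12, genes with many transcripts. With the longest transcript they were 43.2 and 18.3 CPM per kb in WT, with Nhlh2 at 10, so that Tcf12 lay above Nhlh2, and all 21 pairs of members kept their order.

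**Figure D4:**
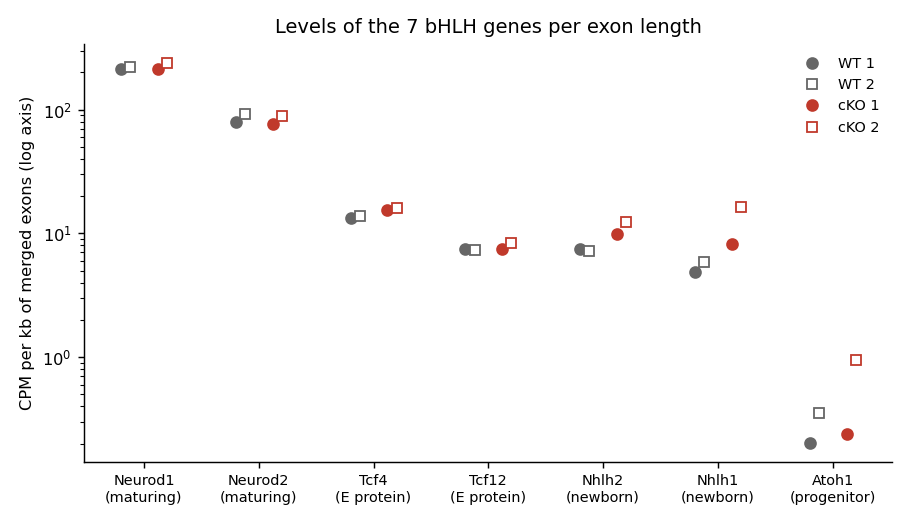
CPM per kb of merged exon length of the 7 genes on a log axis, 1 point per library (grey for WT, red for cKO, circles for replicate 1, squares for replicate 2), in descending order of the WT mean. Neurod1 is near 215 and Atoh1 near 0.28 CPM per kb in WT, and the cKO points of Nhlh1 and Nhlh2 lie above their WT points.

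The other E protein and the ID inhibitors, genes that set how much E protein is free to pair, did not pass the test, with 0 of 5 tested genes past the threshold and a median log2 fold change of −0.02. The smallest p among them was that of Id4, which restrains neural differentiation, at 131 and 136 CPM in WT and 128 and 102 CPM in cKO (log2 fold change −0.21, SE 0.0915, edgeR adjusted p = 0.244). Among 11 cofactors of bHLH proteins, such as the corepressors of the ETO family and LIM-domain adaptors, 0 passed and the median was 0.00. The share over all tested genes was again 4.04%. The smallest p was that of Ldb1, which bridges LIM-domain and bHLH proteins, at 110 and 110 CPM in WT and 135 and 130 CPM in cKO, to 3 digits (log2 fold change 0.27, SE 0.0766, edgeR adjusted p = 0.0525).

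Calls in the remaining bHLH families were near the background. Of 47 other bHLH genes in 4 lists, 36 were tested, 0 were higher and 2 lower in cKO, against 4.04% of all tested genes in either direction, and the median log2 fold change was 0.05 with a range from −0.75 to 0.97. The median over all tested genes was 0.00. Both cKO libraries lay above both WT libraries for 9 of the 36 and below for 8, against 23.2% of all tested genes each way.

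One of the 2 was Bhlhe40, a repressor of the HES, HEY and Orange group and part of the circadian system, at 42.7 and 45.0 CPM in WT and 27.8 and 24.2 CPM in cKO. The groups were well apart (log2 fold change −0.75, SE 0.118, edgeR adjusted p = 0.000579), and it was the only gene of 9 tested in its list to pass. The other was Olig1, a factor of the oligodendrocyte lineage, at 136 and 134 CPM in WT and 105 and 114 CPM in cKO (log2 fold change −0.30, SE 0.0779, edgeR adjusted p = 0.0309), and no more of the 11 tested neural class II genes passed. The call for Olig1 was lost in DESeq2 (adjusted p = 0.0904), without a filter on low counts (0.114) and with any library left out (0.152 to 0.493), and that for Bhlhe40 without cKO 1 (0.251) or cKO 2 (0.493). In the MYC, MAX and MXD group, which controls growth and proliferation, 0 of 11 passed, with Mycl having the smallest p (log2 fold change 0.45, SE 0.17, edgeR adjusted p = 0.158).

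**Figure D5:**
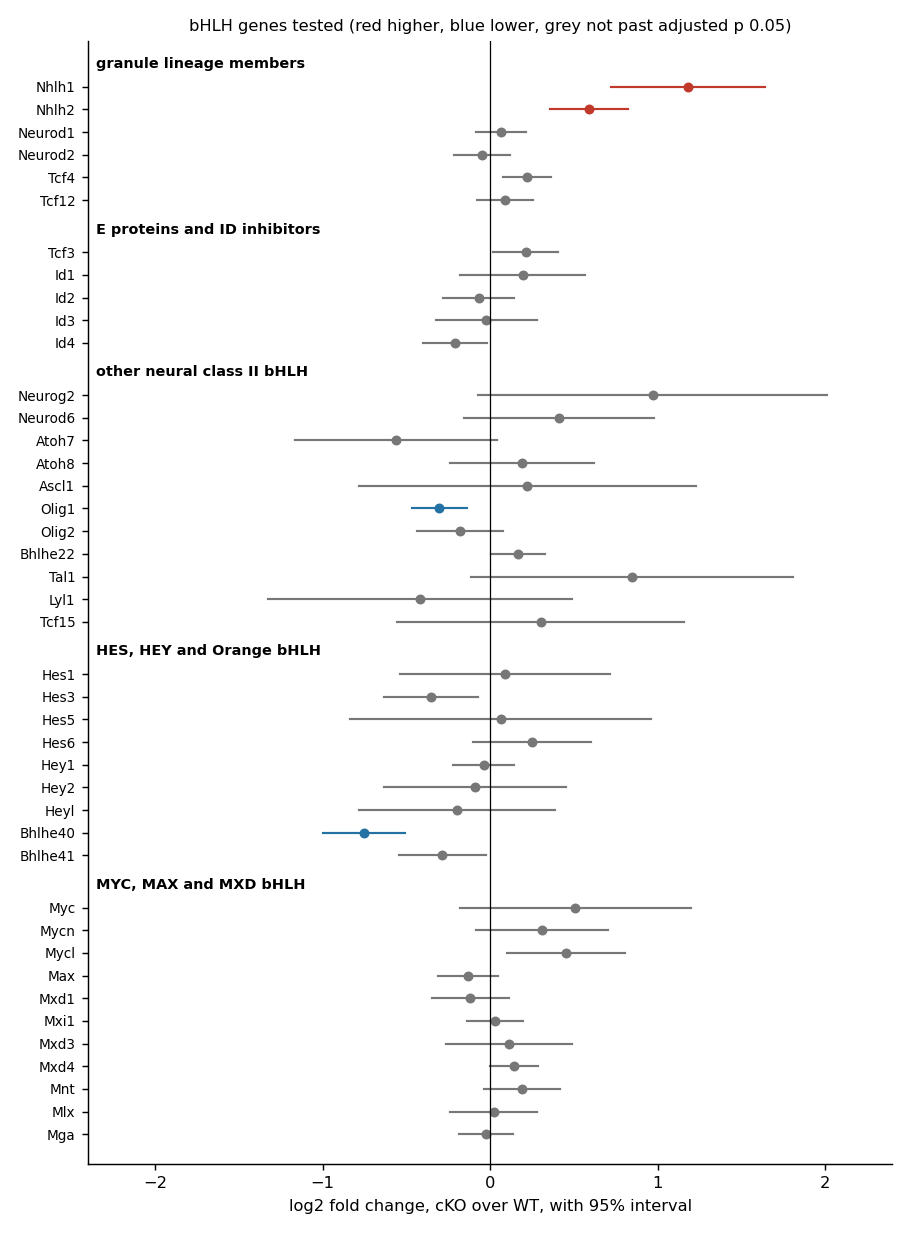
Log2 fold change, cKO over WT, with its 95% interval for the tested bHLH genes, grouped by family, with red for genes higher, blue for genes lower and grey for genes not past an adjusted p of 0.05. Nhlh1 at 1.18 and Nhlh2 at 0.59 are the genes in red, and Olig1 at −0.30 and Bhlhe40 at −0.75 those in blue.

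Genes of the granule lineage stages around the members were counted in the same fit, from lists drawn up with earlier results of these data known, so that their directions are a description. Of 15 newborn granule neuron genes, 9 were higher, 0 lower and 6 did not pass, with a median log2 fold change of 0.57. The 4 with the smallest p were Sox11 (1.13) and Cd24a (1.22), a transcription factor and a surface protein of immature neurons, Tubb2b (0.74), a tubulin of growing neurons, and Igfbpl1 (1.19). Of 13 precursor genes, 5 were higher, 0 lower and 8 did not pass, 5 of them with negative values, and the median was 0.12. The 5 were Barhl1 (0.93), a homeobox gene of granule precursors, Sfrp1 (1.03), a secreted Wnt modulator, Ccnd2 (0.93), a cyclin of granule precursors, and Top2a (1.10) and Mki67 (0.96), genes of dividing cells, the last named after its value was seen and with overlapping groups (WT 2 at 21.1 and cKO 1 at 20.3 CPM). DESeq2 called 4 of the newborn genes and 1 of the precursor genes, Sfrp1 (adjusted p = 0.000314), and edgeR without WT 2 called 6 precursor genes higher and 1 lower. Of 12 mature granule neuron genes, 8 were lower, 1 was higher and 3 did not pass, with a median of −0.37. These included the glutamate receptor gene Grm4 (−0.61), the GABA-A receptor subunit gene Gabra6 (−0.44) and the transcription factor gene Etv1 (−0.43), while the potassium channel gene Kcnk9 was higher (0.44).

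The summed level of each stage list was most extreme in cKO 2, the library that was also highest for Nhlh1, Nhlh2 and Atoh1. In the order WT 1, WT 2, cKO 1, cKO 2, the newborn genes summed to 2706, 2910, 3352 and 4079 CPM, and the precursor genes to 515, 564, 599 and 707 CPM. The mature genes summed to 7651, 7838, 6841 and 6022 CPM in the same order. Neurod1 and Neurod2 did not pass the test while 8 of the 12 mature genes fell, and a difference between them and that list was not tested.

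The genes whose values over the 4 libraries were most like those of Nhlh1 and Nhlh2 were found by the root-mean-square difference of log2 CPM, each gene set relative to its own WT mean, over 16470 genes. For Nhlh1 these were Uhrf1, a factor of DNA methylation maintenance (difference 0.0568), Igfbpl1 (0.0571) and Lpar2, a lysophosphatidic acid receptor gene (0.0582). Uhrf1 was at 3.88 and 4.32 CPM in WT and 6.15 and 12.3 CPM in cKO, and Igfbpl1 at 26.1 and 32.3 CPM in WT and 48.3 and 85.9 CPM in cKO, both with the same order of libraries as Nhlh1. Lpar2 was near 1 CPM and did not pass the test (adjusted p = 0.226). For Nhlh2 they were Frem2 (0.0212), an extracellular matrix gene, Afap1 (0.024), an actin-associated gene, and Foxl2os (0.0249), of which Frem2 and Afap1 passed the test (log2 fold change 0.61 and 0.59, edgeR adjusted p = 0.0134 and 0.000776). With 4 libraries, many genes can share such a pattern. The genes were picked by their values in these same libraries, so fold changes near those of Nhlh1 and Nhlh2 follow from the choice.

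Markers of other cells were read beside these values. The 5 tested choroid plexus markers included 2 higher ones, Ttr and Kl. Ttr was at 1.73 and 0.108 CPM in WT 1 and WT 2, 609 CPM in cKO 1 and 13.9 CPM in cKO 2, and Kl at 0.647, 1.51, 16.8 and 1.68 CPM in the same order. Both were highest in cKO 1, and Nhlh1 and Nhlh2 in cKO 2. Unipolar brush cells, the other glutamatergic neurons of the granular layer, are marked by Eomes, which was at 50.05 and 57.01 CPM in WT and 34.8 and 21.7 CPM in cKO (log2 fold change −0.91, SE 0.149, edgeR adjusted p = 0.000827). It was lowest in cKO 2, the reverse of Nhlh1. Of Bergmann glia and astrocyte markers 2 of 6 fell (Gdf10 and Slc1a3), while the other 4 had positive log2 fold changes that did not pass (Aldh1l1 at 0.28, adjusted p = 0.0608). Of Purkinje cell markers 1 of 5 rose (Slc1a6), while 3 had negative values that did not pass (the lowest Car8 at −0.20) and the list median was −0.11. None of the markers passed in 3 further lists, 0 of 6 interneuron, 0 of 4 microglia and 0 of 5 endothelial, mural and fibroblast markers. The part of these cell types in the levels of the members was not tested.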

How the data were processed

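RNA-seq libraries from cerebellum of 2 WT and 2 cKO mice at postnatal day 14 were grouped by sample title, with the title followed where the description of replicate 2 gave another number. The authors prepared poly(A)-enriched paired-end libraries, used Trimmomatic 0.38 for trimming and STAR 2.7.2b for alignment to the mm10 build (GRCm38), and made exon counts with HTSeq. The deposited values are raw counts per gene symbol, and the strand setting of the counting is not given in the sources used here. Entries that name no gene (59.5% to 61% of each library) entered neither library sizes nor tests.

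Counts were filtered with filterByExpr, scaled by TMM (factors 0.986 to 1.02) and tested with the quasi-likelihood test of edgeR 4.0.16 in R 4.3.3 (two-sided), with Benjamini-Hochberg adjustment over 16617 genes and a threshold of 0.05. The filter, the dispersion (biological coefficient of variation 7.33%) and the p-values come from all 4 libraries. The p-values rest on the spread between 2 mice per group, with each gene's variance drawn toward that of all tested genes. They therefore do not measure a gene's own spread alone. The 2 replicates of a group were not 1 library deposited again, since a chi-square divided by its degrees of freedom was 3.72 in WT and 4.04 in cKO. Alternatives were other scalings, filters, DESeq2 1.42.0, limma-voom (limma 3.58.1), a replicate block, omission of X and Y genes, and omission of each library, where the spread of a lone library was taken from the other group.

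Coordinates and exon lengths are from GENCODE M21. The members, lists and tests were chosen with earlier results of these data known. Named genes were the members, Kdm6b, up to 4 genes past the threshold with the smallest p per list (or 1 where none passed), fixed cell type markers, and the 3 genes with mean CPM of at least 1 most like each member that passed. An added gene is marked as such in the text. Some of the marker genes are not reported here.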

Additional observations from a re-analysis of the deposited data

How the results depend on the processing

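Log2 fold changes of Nhlh1, Nhlh2, Tcf4 and Tcf12 kept their direction in every alternative tried. The 2 members called became 3 with scaling by library totals and with the replicate block (Tcf4 added, adjusted p = 0.036 and 0.0416), 1 with DESeq2, 0 without a filter on low counts (adjusted p = 0.0853 for Nhlh1 and 0.0501 for Nhlh2, 3 members at an unadjusted p under 0.05), and 0 to 2 with a library left out. Genes called went from 671 to 177 without a filter, 320 in DESeq2, 1130 with the replicate block, and 0 to 507 with a library left out. Calls in the related lists went from 25 to 14 without a filter, 13 in DESeq2, and 0 to 28 with a library left out. Of the calls over all genes, 53.8% were lower in cKO, against 40.2% with library totals and 63% with upper-quartile scaling. Same-numbered libraries shared little of their deviation from the group mean (correlation 0.0429). With 2 pairs this cannot tell whether the replicate numbers pair the libraries. The log2 ratio difference of 0.71 was 1.05 for Nhlh1 over Neurod1 alone and 0.53 to 0.90 with a library left out. With a library left out, the log2 fold change ran from −0.0105 to 0.14 for Neurod1, turning without cKO 2, and from −0.16 to 0.0525 for Neurod2, turning without WT 2 and without cKO 1. Where not stated, the cause was not tested. Depth limits Atoh1, and 2 libraries per group limit all members.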

Other observations

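Neurod4, a neural bHLH gene outside the 7 members that was chosen after its values were seen, was as scarce as Atoh1, with 2 and 6 counts in WT 1 and WT 2 and 5 and 18 counts in cKO 1 and cKO 2. It was not tested, and the groups overlapped.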
